A study of Mus musculus with 6 samples.

Results

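The translation initiation factors (eIFs) and elongation factors (eEFs) were followed in mouse retinal ganglion cells (RGCs), which send the output of the retina to the brain. Members were all gene names in the authors' poly-A table that begin with Eif or Eef. One such name, on chromosome Y, was left out by that rule. This gave 62 members among 10361 gene names, of which 50 begin with Eif and 12 with Eef. The names Eif2ak2, Eif3j2, Eif4e1b, Eif4ebp3, Eef2kmt, Eef1akmt3 and Eef1akmt4 were not analysed here. Of the 62 members, 61 averaged 1 FPKM or more across the 6 libraries and were tested. FPKM scales fragments to transcript length and to the mapped total of the library, so levels of different genes are compared per length.

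There were 3 groups of 2 libraries, all from wild-type C57/6NCrl animals and all purified on a Thy1 antibody. In adult control RGCs the AAV2 vector encoded mCherry together with a scramble shRNA mimic. In adult miR-1247 RGCs it encoded a miR-1247-5p mimic, miR-1247-5p being a microRNA. Both adult groups were sorted for mCherry, with about 5000 cells pooled from 10 retinas for a condition. RGCs of embryonic day 18 (E18) received no vector and were not sorted, and about 50000 cells were used. Age, vector, sorting and cell number therefore cannot be told apart between E18 and adult libraries. It is not stated whether the libraries of a group are from separate animals, so p-values measure library spread only, and this may be technical.

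Translation begins when eIF2 brings the initiator tRNA to the small ribosomal subunit, where eIF1, eIF1A and the large scaffold eIF3 hold it ready to scan. The cap-binding complex eIF4F, made of eIF4E, eIF4G and the helicase eIF4A, loads this assembly onto the mRNA. After the subunits join, eEF1A delivers each aminoacyl-tRNA and eEF2 moves the ribosome by a codon. Neurons are known to change from the eEF1A1 form to the eEF1A2 form of this delivery factor as they mature.

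Listed FPKM summed to between 339224 and 392238 per library. The log2 values of libraries within a group correlated over genes at r of 0.98 to 0.985, control with miR-1247 libraries at 0.96 to 0.962, and adult libraries with those of E18 at 0.692 to 0.701. These r are descriptions across genes of libraries that share a protocol. The 12 RGC markers on the list used were all present, with summed levels of 3284 and 3224 FPKM in control, 2016 and 1990 (to the nearest whole FPKM) in miR-1247 and 5409 and 5394 in E18 libraries. Markers of other retinal cells were present too. Listed Müller glia and astrocyte markers, of which 5 of 9 were in the table, summed to 1409 and 1063 FPKM in control, 1825 and 1713 in miR-1247 and 167 and 167 in E18 libraries. The 5 of 8 amacrine markers summed to 675 and 716, 923 and 967, and 309 and 323 FPKM in the same order. Photoreceptor markers (3 of 8) summed to 46.8 and 45.6, 26.9 and 24.3, and 6.41 and 5.57 FPKM, and bipolar markers (3 of 7) to 25.1 and 30.0, 40.4 and 40.9, and 12.7 and 11.3 FPKM. Retinal progenitor markers (2 of 8) are given further below, and the other listed markers were not analysed here. In bulk RNA, fewer cells of a type and less RNA per cell cannot be told apart.

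The members' levels were highest as a group at E18. Their summed level was 4164 and 4096 FPKM in control libraries, 4129 and 4172 in miR-1247 libraries, and 7730 and 7709 in E18 libraries. As a share of all listed FPKM this was 1.14% and 1.21% in control, 1.13% and 1.06% in miR-1247, and 2.08% and 2.07% in E18 libraries. The E18 libraries stood above all 4 adult libraries on both measures, and the adult groups lay close together.

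**Figure D1:**
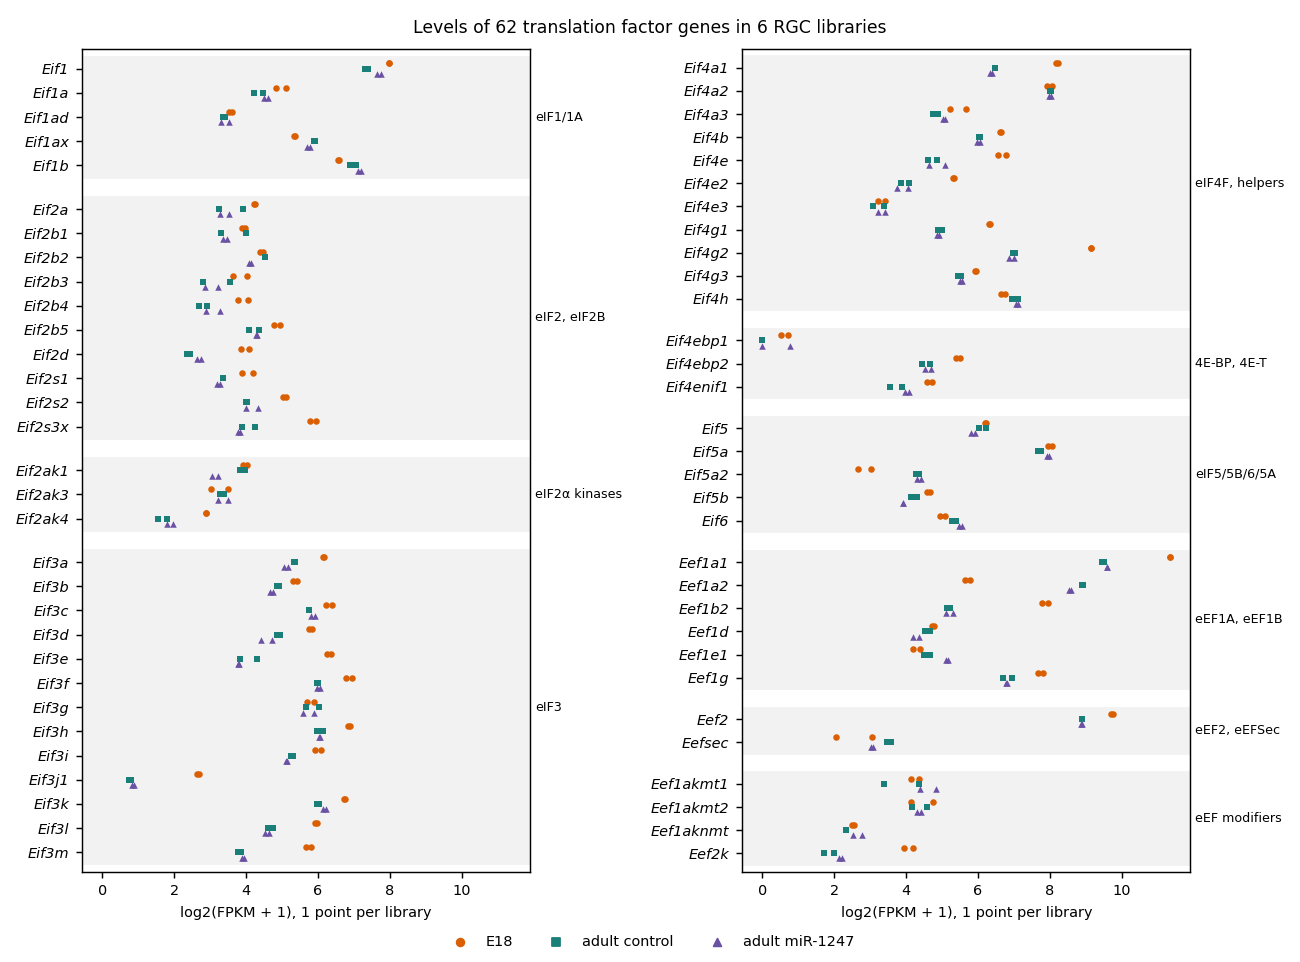
Level of each of the 62 members as log2(FPKM + 1), 1 point per library, with E18, adult control and adult miR-1247 libraries offset within a row and members grouped by role. Eef1a1 is the highest member in all 3 groups, Eef1a2 and Eif5a2 lie lower at E18, and most eIF3 and eIF4F members lie higher at E18.

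In E18 RGCs compared with adult control RGCs, 39 of the 61 tested members rose, 8 fell and 14 were not called, by limma's moderated test at an adjusted p of 0.05. Among all 9987 features tested, 40.2% rose and 29.8% fell, so the members' rises were a larger share than the background and their falls a smaller one. A rise of at least 1 on the log2 scale was seen in 17 members and a fall of that size in 2, against 20.3% and 14.4% of all features. The members' median log2 fold change was 0.63 and that of all features was 0.16. Of the 49 tested initiation factor names 34 rose and 5 fell, with a median of 0.65. Of the 12 elongation factor names 5 rose and 3 fell, with a median of 0.28. All log2 fold changes are on the log2(FPKM + 1) scale, which understates changes of low genes.

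**Figure D2:**
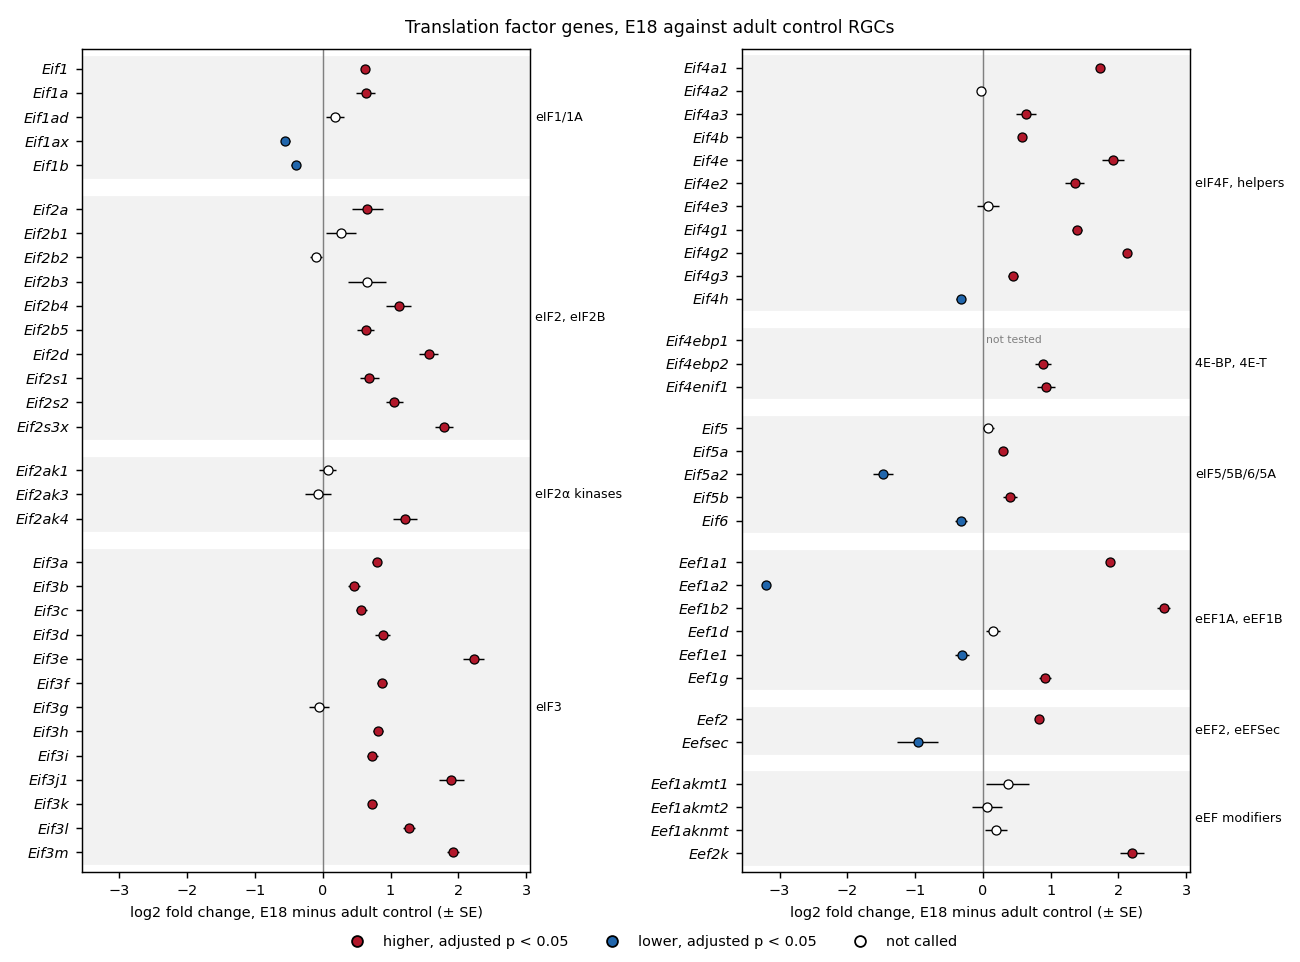
log2 fold change of each member in E18 minus adult control RGCs, with bars of 1 standard error from limma on 6 libraries, filled red where higher and blue where lower at an adjusted p of 0.05, and open where not called. Of the 61 tested members 39 are red and 8 blue, from Eef1a2 at -3.20 to Eef1b2 at 2.67.

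The steepest change was in eEF1A, the GTPase that delivers aminoacyl-tRNA to the ribosome. Eef1a2, the form of mature neurons and muscle (chr2:180782970-180799223, mm39), was at 484 and 474 FPKM in control, 369 and 382 in miR-1247, and 53.4 and 49.3 in E18 libraries. Its E18 level was 9.33 times lower than in control, a log2 fold change of -3.20 ± 0.05 (SE, adjusted p = 8.58e-08 by limma). Eef1a1, the widely expressed form (chr9:78385731-78389006), was at 724 and 695 FPKM in control, 774 and 770.2 in miR-1247, and 2588 and 2602 in E18 libraries. The E18 level of Eef1a1 was 3.66 times that of control (log2 1.87 ± 0.03, limma adjusted p = 9.83e-08). The 2 forms thus moved in opposite directions, and no library of E18 overlapped an adult library for either gene. Eef1a2 made up 40.3% ± 0.325 (SD, n = 2) of the summed eEF1A level in control, 32.7% ± 0.629 in miR-1247 and 1.94% ± 0.115 in E18 RGCs. By level, Eef1a2 ranked 2 among the members in control and 29 at E18, while Eef1a1 ranked 1 in every group. Eef1a1 is known for many pseudogene copies, and how their reads were assigned is not given in the sources used here.

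The eEF1B complex reloads eEF1A with GTP. Its catalytic subunit gene Eef1b2 (chr1:63215984-63219645) was at 34.5 and 36.6 FPKM in control, 33.4 and 38.8 in miR-1247, and 244 and 219.9 in E18 libraries. That is 6.52 times the control level (log2 2.67 ± 0.09, limma adjusted p = 1.32e-06), the largest rise of any member on that log2 scale. Its rank by level went from 24 in control to 8 at E18. The partner subunits changed less. Eef1g was at 103 and 122 FPKM in control and 204 and 222 at E18, a log2 rise of 0.92 ± 0.09 (limma adjusted p = 0.000119). Eef1d was at 22.2 and 24.3 FPKM in control and 26.3 and 25.5 at E18, and was not called (log2 0.15 ± 0.10, limma adjusted p = 0.212). The Eef1d locus shares its coordinates with loci of other names.

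The genes of the translocase and of the kinase that brakes it both stood higher in RNA level at E18. Eef2, the translocase, was at 479 and 477 FPKM in control, 469 and 471 in miR-1247, and 834 and 862 in E18 libraries (log2 0.82 ± 0.03, limma adjusted p = 3.05e-06). Eef2k, the kinase that phosphorylates eEF2 and slows elongation, was at 3.0 and 2.30 FPKM in control, 3.67 and 3.41 in miR-1247, and 17.4 and 14.2 in E18 libraries. The kinase gene thus rose from a low level, to 5.97 times control (log2 2.20 ± 0.18, limma adjusted p = 5.14e-05). The gene of its substrate rose 1.77 times from a high one. Eefsec, the factor for selenocysteine, was at 10.0 and 10.9 FPKM in control and 3.14 and 7.32 at E18. It fell by 0.96 ± 0.31 on the log2 scale (limma adjusted p = 0.0278), with E18 libraries that differed widely, and the call was lost on leaving out a library in 5 of 6 cases. Eef1akmt1, Eef1akmt2 and Eef1aknmt, which encode methyltransferases of eEF1A, were not called. The locus identifier of Eef1akmt2 is shared with Fam53b, so its value cannot be assigned to Eef1akmt2 alone. Loci of 16 other names have the same coordinates.

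The other factor families with several forms were also compared by their shares, which the rule for choosing members did not use. Among the eIF4A helicases, Eif4a1 was at 87.7 and 87.1 FPKM in control, 80.1 and 82.1 in miR-1247, and 297 and 286 in E18 libraries (log2 1.73 ± 0.05, limma adjusted p = 5.84e-07). Eif4a2 was at 259.5 and 257 FPKM in control, 263 and 251 in miR-1247, and 266 and 239.8 in E18 libraries (log2 -0.03 ± 0.06, limma adjusted p = 0.629). The levels of Eif4a2 overlapped between groups, while those of Eif4a1 did not overlap between E18 and control. Eif4a2 made up 74.7% of the pair's summed level in control, 76.0% in miR-1247 and 46.4% in E18 RGCs. The Eif4a2 locus shares its coordinates with a locus of another name.

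Eif5a2 and Eif1b, the minor forms of their pairs, also took smaller shares at E18. Eif5a2 (chr3:28835425-28852995), one of the forms of the hypusine-bearing factor eIF5A, was at 18.2 and 19.6 FPKM in control, 20.1 and 18.5 in miR-1247, and 7.17 and 5.28 in E18 libraries. It fell by 1.47 ± 0.15 on the log2 scale (limma adjusted p = 0.000171) and was with Eef1a2 the other member that fell by at least 1. Eif5a was at 214 and 201 FPKM in control, 239.9 and 253 in miR-1247, and 245 and 267 at E18 (log2 0.30 ± 0.06, limma adjusted p = 0.00458). The share of Eif5a2 was 8.34% in control, 7.28% in miR-1247 and 2.39% in E18 RGCs. Eif1 and Eif1b encode close forms of the start-codon selection factor eIF1. Eif1 rose at E18, from 168 and 159 FPKM in control to 251 and 252 (log2 0.62 ± 0.06, limma adjusted p = 9.18e-05). Eif1b fell, from 132 and 117 FPKM to 94.5 and 93.7 (log2 -0.40 ± 0.07, limma adjusted p = 0.0023). The share of Eif1b was 43.2% in control, 40.8% in miR-1247 and 27.2% in E18 RGCs.

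**Figure D3:**
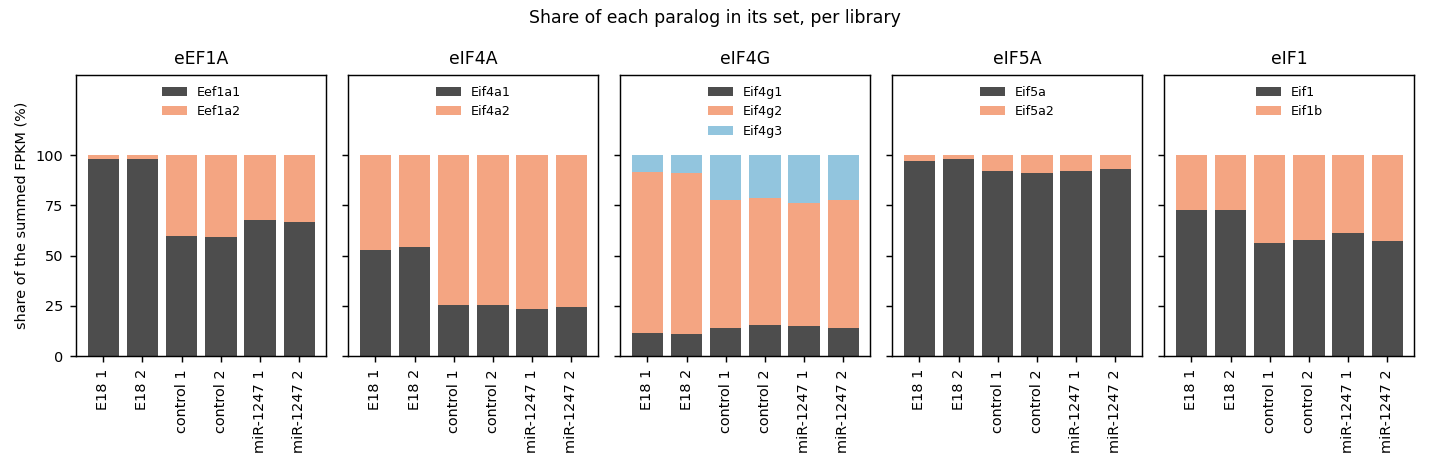
Share, in percent of the summed FPKM of the named genes, of each form of eEF1A, eIF4A, eIF4G, eIF5A and eIF1, with 1 stacked bar per library. The share of Eef1a2 is 40.3% on average in control and 1.94% at E18, and that of Eif4a2 is 74.7% in control and 46.4% at E18.

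The pair of eIF1A genes moved apart as well. Eif1a rose at E18, from 21.3 and 17.5 FPKM in control to 27.7 and 33.6 (log2 0.63 ± 0.14, limma adjusted p = 0.00555). Eif1ax fell, from 58.0 and 59.8 FPKM to 39.3 and 40.3 (log2 -0.55 ± 0.07, limma adjusted p = 0.000391). Their products are closely similar, so reads may have been split between them. Eif1ad was not called. Of the 5 genes in the group of eIF1 and eIF1A, 2 rose and 2 fell, against 40.2% and 29.8% of all features.

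The eIF4F group and its helpers had 11 tested members, of which 8 rose, 1 fell and 2 were not called. Of all features 40.2% rose and 29.8% fell. The median log2 fold change of this group was 0.63. Eif4e, the cap-binding protein, was at 28.2 and 23.4 FPKM in control, 32.6 and 24.1 in miR-1247, and 108 and 93.5 in E18 libraries. It rose 3.90 times (log2 1.92 ± 0.16, limma adjusted p = 6.46e-05). Eif4e2, a cap-binding relative known to repress translation, was at 13.4 and 15.9 FPKM in control, 15.7 and 12.4 in miR-1247, and 39.3 and 38.5 in E18 libraries (log2 1.35 ± 0.14, limma adjusted p = 0.00016). Both cap-binding genes were higher in each E18 library than in any adult library. Eif4e3, the third cap-binding relative, was at 7.47 and 9.53 FPKM in control, 9.70 and 8.35 in miR-1247, and 8.38 and 9.59 at E18 (log2 0.08 ± 0.16, limma adjusted p = 0.687). Its locus identifier is shared with Foxp1, so this value cannot be assigned to Eif4e3 alone.

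The scaffold genes differed in the size of their rise. Eif4g2, which encodes a scaffold without the eIF4E-binding site (DAP5), was at 131 and 125 FPKM in control, 116 and 127 in miR-1247, and 561 and 562 in E18 libraries. It rose 4.40 times (log2 2.13 ± 0.06, limma adjusted p = 4.82e-07). The authors' assembled locus for it (chr7:110666957-110721891) runs beyond the annotated gene. Eif4g1, the main scaffold of eIF4F, was at 28.3 and 30.8 FPKM in control, 29.2 and 27.8 in miR-1247, and 79.2 and 78.8 in E18 libraries (log2 1.39 ± 0.08, limma adjusted p = 9.64e-06). Eif4g3, its close relative, was at 45.4 and 42.4 FPKM in control, 46.0 and 44.5 in miR-1247, and 59.2 and 61.0 at E18 (log2 0.44 ± 0.07, limma adjusted p = 0.00127). In adult RGCs Eif4g3 was above Eif4g1 in every library, and at E18 it was below Eif4g1 in both. The share of Eif4g3 in the 3 scaffolds was 21.8% in control, 23.2% in miR-1247 and 8.58% at E18, and that of Eif4g2 was 63.5%, 62.2% and 80.2%. The helicase cofactors split: Eif4b rose (log2 0.58, limma adjusted p = 0.000186), and Eif4h fell by 0.33 on the log2 scale (limma adjusted p = 0.0062). Eif4a3, the helicase of the exon junction complex, was at 28.3 and 26.0 FPKM in control, 31.3 and 33.1 in miR-1247, and 50.02 and 36.3 at E18 (log2 0.63 ± 0.15, limma adjusted p = 0.00821).

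The eIF4E-binding proteins hold back eIF4E until mTORC1 phosphorylates them. Eif4ebp2, the main form in neurons, was at 20.7 and 24.5 FPKM in control, 21.9 and 24.8 in miR-1247, and 40.9 and 44.5 in E18 libraries. It rose with Eif4e, though by less (log2 0.89 ± 0.12, limma adjusted p = 0.000509). Eif4enif1, the eIF4E transporter, rose too (log2 0.93 ± 0.14, limma adjusted p = 0.000872). Eif4ebp1 was listed at 0 in both control libraries and in miR-1247 library 1, at 0.715 FPKM in miR-1247 library 2, and at 0.628 and 0.419 FPKM at E18, and was not tested.

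Promoter windows of the members were read because many moved together. The E-box CACGTG, the motif bound by MYC and its relatives, reads the same on both strands and was searched from 250 bases before to 50 after each RefSeq start (GRCm38.p6). It was found in 13 of 50 members with a window (26%), in 995 of 8196 tested gene names (12.1%) and in 2187 of 27025 gene names with a window (8.09%). Among members that rose at E18 it was in 9 of 33 (27.3%), among those that fell in 3 of 7 (42.9%), and among those not called in 1 of 10 (10%). Below are the matches upstream of the start in members that changed by at least 1 on the log2 scale, each as 30 bases on the gene's strand with the E-box in capitals, its position counted from the start, and coordinates in GRCm39 from an exact match. They are shown since 4 of these genes rose and the other, Eif5a2, fell. A match is not a binding site.
Eef2k, chr7:120442011-120442040, plus strand, E-box from position -31: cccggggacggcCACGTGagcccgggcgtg
Eif4a1, chr11:69563421-69563450, minus strand, E-box from position -189: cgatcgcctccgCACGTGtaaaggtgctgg
Eif4e, chr3:138232789-138232818, plus strand, E-box from position -228: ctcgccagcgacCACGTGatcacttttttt
Eif4e, chr3:138232953-138232982, plus strand, E-box from position -64: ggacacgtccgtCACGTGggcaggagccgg
Eif4g1, chr16:20491411-20491440, plus strand, E-box from position -54: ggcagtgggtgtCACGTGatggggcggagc
Eif5a2, chr3:28835272-28835301, plus strand, E-box from position -142: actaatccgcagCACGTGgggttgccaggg
Eif5a2, chr3:28835297-28835326, plus strand, E-box from position -117: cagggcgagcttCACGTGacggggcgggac
Both Eif4e windows lie inside the locus that the authors assembled for Eif4e, which begins further upstream at position 138231940.

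The scaffold eIF3 rose almost throughout. Of its 13 genes 12 rose at E18, against 40.2% of all features, none fell and 1 was not called, with a median log2 fold change of 0.82. Eif3e (chr15:43110189-43146115) was at 13.3 and 18.9 FPKM in control, 12.7 and 13.01 in miR-1247, and 74.6 and 81.3 in E18 libraries (log2 2.23 ± 0.16, limma adjusted p = 2.99e-05). Eif3m was at 12.7 and 13.4 FPKM in control, 13.9 and 14.5 in miR-1247, and 54.7 and 49.9 in E18 libraries (log2 1.92 ± 0.09, limma adjusted p = 5.93e-06). These were the lowest eIF3 genes of the adult libraries other than Eif3j1, and at E18 they stood among the rest. Eif3l was at 23.3 and 25.9 FPKM in control, 22.1 and 24.1 in miR-1247, and 59.6 and 61.3 in E18 libraries (log2 1.27 ± 0.09, limma adjusted p = 2.93e-05).

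Eif3j1, a loosely bound subunit, was at 0.674 and 0.748 FPKM in control, 0.824 and 0.784 in miR-1247, and 5.49 and 5.23 in E18 libraries (log2 1.89 ± 0.19, limma adjusted p = 0.000134). Its ratio of mean FPKM was 7.54, its locus shares coordinates with another name, and its near-identical copy Eif3j2 was not analysed here, so this value is uncertain. The other 8 subunit genes that rose, Eif3a, Eif3b, Eif3c, Eif3d, Eif3f, Eif3h, Eif3i and Eif3k, did so by 0.46 (Eif3b) to 0.88 (Eif3d) on the log2 scale. Eif3g was at 49.9 and 64.1 FPKM in control and 50.5 and 58.5 at E18, with overlapping groups (log2 -0.06 ± 0.15, limma adjusted p = 0.749). Leaving out Eif3j1, the highest eIF3 gene was 5.43 and 4.80 times the lowest in control libraries, 5.42 and 5.69 times in miR-1247 libraries, and 2.92 and 3.09 times in E18 libraries. The levels of the subunit genes thus lay closer together in each E18 library than in any adult library, and this difference was not tested.

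The eIF2 complex carries the initiator tRNA and is recharged by the exchange factor eIF2B. Of the 10 genes in this group 7 rose at E18, none fell and 3 were not called, against 40.2% and 29.8% of all features that rose and fell. The group's median log2 fold change was 0.67. The gene of the tRNA-binding gamma subunit, Eif2s3x, was at 13.9 and 18.0 FPKM in control, 12.6 and 13.2 in miR-1247, and 60.9 and 53.9 in E18 libraries (log2 1.79 ± 0.14, limma adjusted p = 4.03e-05). The beta subunit gene Eif2s2 was at 15.0 and 15.2 FPKM in control, 15.0 and 19.0 in miR-1247, and 33.6 and 31.3 in E18 libraries (log2 1.05 ± 0.13, limma adjusted p = 0.000356). The alpha subunit gene Eif2s1, whose product is the phosphorylated one, was at 9.22 and 9.28 FPKM in control, 8.20 and 8.69 in miR-1247, and 17.4 and 13.8 at E18 (log2 0.69 ± 0.14, limma adjusted p = 0.00436). All 3 subunit genes thus rose, gamma most by fold.

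Among the eIF2B genes, Eif2b4 (delta) was at 6.50 and 5.39 FPKM in control, 6.34 and 8.67 in miR-1247, and 12.7 and 15.5 in E18 libraries (log2 1.12 ± 0.19, limma adjusted p = 0.00182). The catalytic subunit gene Eif2b5 (epsilon) also rose (log2 0.63 ± 0.12, limma adjusted p = 0.00341). Eif2b1, Eif2b2 and Eif2b3 were not called, at log2 fold changes of 0.27, -0.10 and 0.65 (limma adjusted p = 0.308, 0.359 and 0.0761). Eif2d, which encodes a separate tRNA-binding factor of initiation and recycling, was at 4.45 and 4.16 FPKM in control, 5.72 and 5.25 in miR-1247, and 15.9 and 13.5 in E18 libraries (log2 1.56 ± 0.15, limma adjusted p = 0.000106). Eif2b4, Eif2d and Eif2a each share coordinates with a locus of another name. Eif2a, at a log2 fold change of 0.66 ± 0.23 (limma adjusted p = 0.0365), had control libraries at 14.1 and 8.45 FPKM and lost its call on leaving out a library in 5 of 6 cases.

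Kinases that phosphorylate eIF2 alpha under stress differed from each other. Eif2ak4 (GCN2, the sensor of uncharged tRNA) was at 1.91 and 2.48 FPKM in control, 2.93 and 2.50 in miR-1247, and 6.39 and 6.34 in E18 libraries (log2 1.21 ± 0.18, limma adjusted p = 0.000951). Eif2ak1 (HRI, the haem-regulated kinase) was at 14.5 and 13.2 FPKM in control and 14.1 and 15.2 at E18 (log2 0.07 ± 0.13, limma adjusted p = 0.614). Eif2ak3 (PERK, the kinase of the endoplasmic reticulum) was at 8.64 and 9.49 FPKM in control, 8.27 and 10.2 in miR-1247, and 7.20 and 10.2 at E18 (log2 -0.07 ± 0.19, limma adjusted p = 0.762). Only the GCN2 gene of these 3 was called, and the difference between the kinases was not tested.

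The subunit joining factors changed little. Eif5b, the GTPase of subunit joining, rose by 0.40 ± 0.10 on the log2 scale (limma adjusted p = 0.0114), and its locus shares coordinates with loci of other names. Eif6, which keeps the large subunit from joining too early, fell by 0.32 ± 0.09 (limma adjusted p = 0.0167). Eif5, the GTPase activator of eIF2, was not called (log2 0.08 ± 0.08, limma adjusted p = 0.405).

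Other genes of the pathway were followed through lists that do not overlap the members, to be read against the 40.2% of all features that rose at E18 and the 29.8% that fell. Of 13 genes of the mTORC1 and MNK arm 5 rose and 3 fell, shares near that background. Rps6kb2, a ribosomal S6 kinase, rose from 1.92 ± 0.38 to 16.1 ± 0.87 FPKM (SD, n = 2 libraries; log2 2.55, limma adjusted p = 3.14e-05), and Tsc2, an inhibitor upstream of mTORC1, also rose (log2 1.75, limma adjusted p = 2.24e-05), as did the eIF4E kinase Mknk2 (log2 1.05). Rptor, the mTORC1 scaffold, fell by 1.13 on the log2 scale (limma adjusted p = 0.000225), and Akt1s1, an mTORC1 inhibitor, by 1.24 (limma adjusted p = 0.00113). Of 13 other initiation helpers 10 rose and 2 fell. The largest rise there was in Tpt1, whose mRNA is a known target of mTORC1-dependent translation, from 55.5 ± 3.12 to 536 ± 6.77 FPKM (SD, n = 2 libraries; log2 3.25, limma adjusted p = 2.6e-07). The helicase Dhx29 (log2 1.40) and the hypusine enzyme Dhps (log2 1.12) also rose. Another hypusine enzyme, Dohh, fell (log2 -0.68, limma adjusted p = 0.000281), as did Cyfip2, a partner of the FMR protein (log2 -1.41). Of 9 integrated stress response genes 3 rose and 4 fell. Those that fell include the stress-induced Sesn2 (log2 -2.34, limma adjusted p = 9.84e-05) and Ddit3 (log2 -1.47, limma adjusted p = 0.000129). Chac1 (log2 -0.85, limma adjusted p = 0.0187) and Ppp1r15b, an eIF2 alpha phosphatase subunit (log2 -0.41, limma adjusted p = 0.0204), fell too. Those that rose were Gcn1, the partner of GCN2 (log2 0.97, limma adjusted p = 0.000825), Ppp1r15a, an eIF2 alpha phosphatase subunit (log2 0.54, limma adjusted p = 0.0163), and Atf4, the response's main transcription factor (log2 0.51, limma adjusted p = 0.00102). Poly-A binding proteins and their partners had 3 rises and no fall among 5 genes, with Pabpc4 at a log2 fold change of 2.04. Termination and rescue factors had 3 rises and 3 falls among 7, and the rescue partners Hbs1l (log2 1.56) and Pelo (log2 -1.22) moved in opposite directions. Of 9 mitochondrial translation factors 6 rose and 1 fell. The largest rises there were in Guf1 (log2 2.38), Mtrf1 (log2 1.30) and Gfm2 (log2 1.25). The rise of Mtrf1 is uncertain (limma adjusted p = 0.0369), with control libraries that differed widely at a low level (1.25 ± 1.33 FPKM, SD, n = 2). The gene that fell was Gfm1 (log2 -1.22), a mitochondrial elongation factor G.

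Of the 12 RGC markers 10 rose at E18 against control and 2 fell. Those that fell were Thy1, the target of the purification antibody (log2 -1.28), and Slc17a6 (log2 -1.19). The markers of other cell types moved as well. Of the 5 amacrine markers 4 fell and 1 rose, and of the 5 Müller glia and astrocyte markers 4 fell and 1 rose. Only 2 of the 8 listed retinal progenitor markers, Dapl1 and Hes6, were in the table, and both rose. Both tested photoreceptor markers and 2 of 3 bipolar markers fell. These 2 progenitor markers summed to 19.5 and 18.6 FPKM in control, 19.6 and 22.4 in miR-1247, and 52.9 and 49.5 in E18 libraries. Their part in the members' differences was not tested.

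Mouse miR-1247-5p, which the mimic is named after, has its gene on chromosome 12. The sequence that the vector encodes was not examined. The miR-1247-5p sequence is shown, from RefSeq (GRCm38.p6), because the seed (bases 2 to 8, in capitals) is the stretch that pairs with targets.
miR-1247-5p: aCCCGUCCcguucguccccgga
The complement of the seed, GGACGGG on the transcript strand, was found in the canonical 3′ UTR (GENCODE, GRCm39) of 0 of 59 tested members with such a UTR and of 320 of 9788 tested gene names (3.27%). The tested members' 3′ UTRs had a median length of 963 bases and those of all tested names 1490. No match says only that these letters are not in these stretches.

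In miR-1247 RGCs compared with adult control RGCs, 2 of the 61 tested members rose, 3 fell and 56 were not called, against 3.53% of all features that rose and 6.22% that fell. The members' median log2 fold change was 0.02 and that of all features -0.03. The split depended on the scaling of the libraries: it was 0 risen and 5 fallen with equal totals, 4 and 3 with median ratio scaling, 3 and 2 with quantile normalization, and 4 and 2 without mitochondrial genes. On leaving out 1 adult library at a time, 0 members were called by limma, with 11 to 15 members at an unadjusted p under 0.05, and on leaving out either E18 library 1 was called. With all 6 libraries 15 of the 61 tested members had an unadjusted p under 0.05, against 2853 of all 9987 features. No call in this comparison held on leaving out an adult library.

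**Figure D4:**
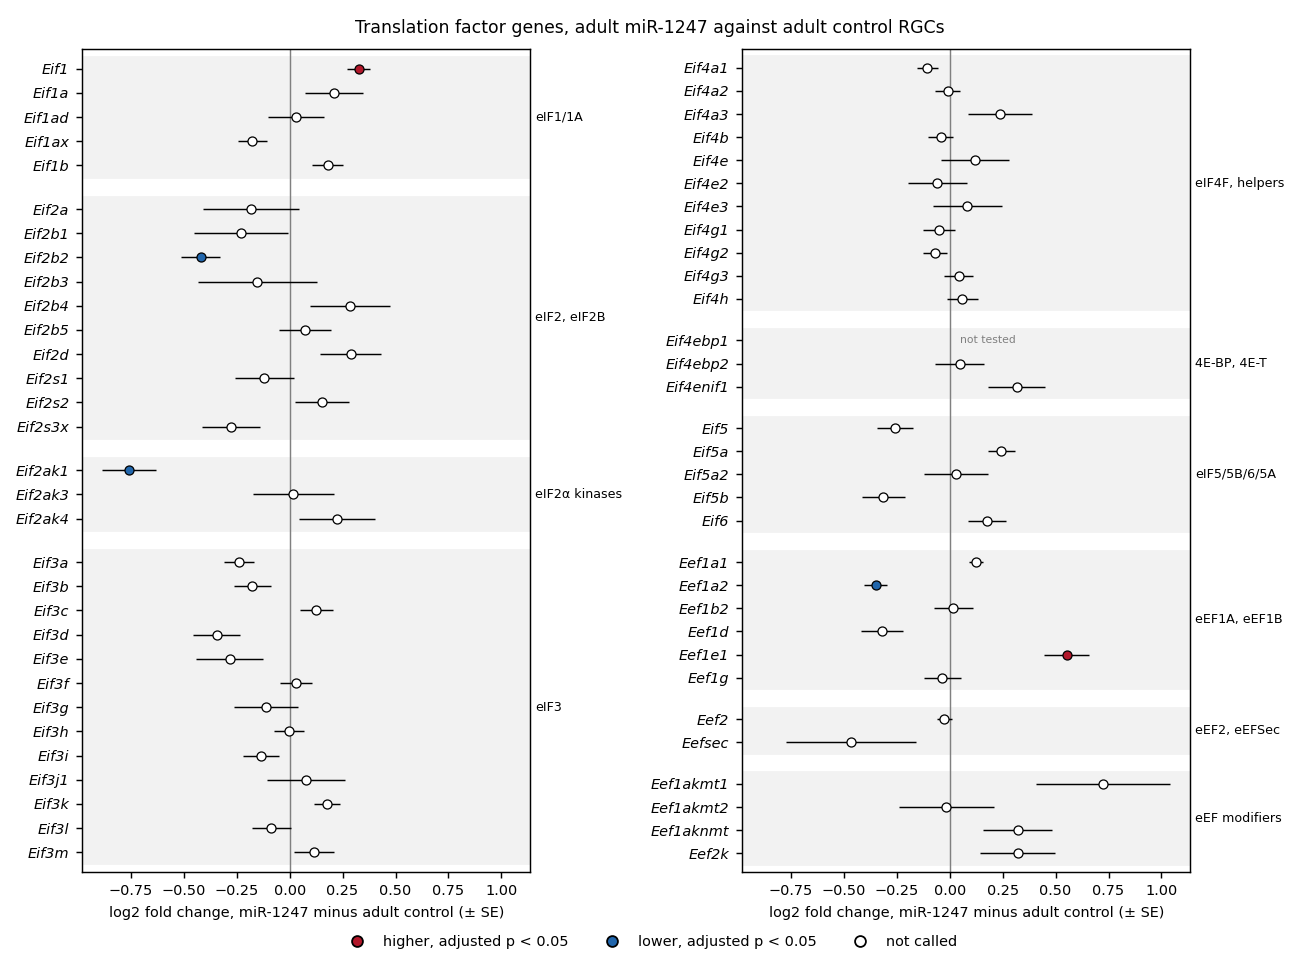
log2 fold change of each member in adult miR-1247 minus adult control RGCs, with bars of 1 standard error from limma on 6 libraries, filled where the adjusted p was under 0.05. The filled points are Eif1 and Eef1e1 on the higher side and Eef1a2, Eif2b2 and Eif2ak1 on the lower side, and Eif2ak1 at -0.76 is the furthest from 0 of these.

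Eif2ak1 (chr5:143803543-143846665) was at 14.5 and 13.2 FPKM in control, 8.32 and 7.24 in miR-1247, and 14.1 and 15.2 in E18 libraries. The miR-1247 libraries stood below all 4 others, with a log2 fold change against control of -0.76 ± 0.13 (limma adjusted p = 0.0208). Its locus shares coordinates with a locus of another name. Eef1a2, with the values given above, fell by 0.35 ± 0.05 on the log2 scale (limma adjusted p = 0.0176) with no overlap of control and miR-1247 libraries. Its paralog Eef1a1 was not called (log2 0.12 ± 0.03, limma adjusted p = 0.0621). Eif2b2, the beta subunit of eIF2B, was at 22.05 and 22.09 FPKM in control, 15.8 and 16.7 in miR-1247, and 20.0 and 21.1 in E18 libraries (log2 -0.42 ± 0.09, limma adjusted p = 0.0407).

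The members that rose were Eif1 and Eef1e1. Eif1 was at 168 and 159 FPKM in control and 213 and 197 in miR-1247 libraries (log2 0.33 ± 0.06, limma adjusted p = 0.0222). Eef1e1, which encodes a part of the multi-tRNA synthetase complex, was at 24.4 and 21.7 FPKM in control, 34.8 and 33.7 in miR-1247, and 19.8 and 17.2 in E18 libraries. It rose by 0.55 ± 0.11 on the log2 scale with miR-1247 (limma adjusted p = 0.0302) and fell by 0.31 ± 0.11 at E18 (limma adjusted p = 0.0379). The call at E18 was lost on leaving out a library in 4 of 6 cases. Adult control therefore lay between the other groups for Eef1e1. With equal totals Eif1 and Eef1e1 were no longer called. Eif2b2 was not called with quantile normalization, without mitochondrial genes or with the replicate number as a block.

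None of the 13 eIF3 genes and none of the 11 genes of eIF4F and its helpers was called with miR-1247 by limma, with 3 and 0 of them at an unadjusted p under 0.05. Of all features 3.53% rose and 6.22% fell in this comparison, and 2853 of 9987 had an unadjusted p under 0.05. Eef2, at 479 and 477 FPKM in control and 469 and 471 in miR-1247, had a log2 fold change of -0.02 ± 0.03 (limma adjusted p = 0.684). In the other lists of the pathway, the called genes were Atf5, a transcription factor of the integrated stress response (log2 -0.69, limma adjusted p = 0.0469), and Tufm, the mitochondrial elongation factor Tu (log2 -0.52, limma adjusted p = 0.0268). All 12 RGC markers fell with miR-1247, while 2 of 5 amacrine markers and 1 of 5 Müller glia and astrocyte markers rose. Of 2 photoreceptor markers tested, Rom1 fell (log2 -0.98, limma adjusted p = 0.0272) and Reep6 was not called (log2 -0.48, limma adjusted p = 0.0627). None of the 3 bipolar or 2 progenitor markers was called by limma, with 1 and 0 of them at an unadjusted p under 0.05. These marker differences lay between the same libraries as the falls of Eef1a2, Eif2b2 and Eif2ak1, and their part in those falls was not tested.

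E18 and miR-1247 RGCs were also compared directly, with libraries that the other comparisons share. Here 42 members were higher at E18 and 7 lower, against 41.5% and 28.4% of all features, with a median log2 fold change of 0.64 for the members and 0.19 for all features. For Eef1a2 the log2 fold change was -2.85, for Eef1b2 2.65 and for Eif3e 2.51.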

How the data were processed

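Per the submitters' processing notes, the authors used HISAT2, Cufflinks and Cuffdiff with the mm39 build, in versions not given in the sources used here. The labels' protocols name a TruSeq poly-A kit and paired reads of 100 bases. The authors deposited FPKM per gene and library, and log2 ratios between groups, which the FPKM reproduced within 0.00206. FPKM holds no read counts, so depth is unknown and no counting interval is given. The constant of 1e-05 added to each value was subtracted, loci of a name were summed, and names made of the same loci were tested together (10162 features). Features with a mean of at least 1 FPKM (9987) were tested on log2(FPKM + 1) with limma 3.58.1 in R 4.3.3. The model had 3 group means over 6 libraries and a variance trend, and was two-sided. Benjamini-Hochberg adjustment ran over all 9987 features at 0.05. Values in every library are given for members called with a log2 change of at least 1 at E18, members called with miR-1247, and the paralog or partner sets of eEF1A, eIF4A, eIF5A, eIF4E, eIF4E-binding proteins, eIF4G, eIF2, its kinases, and Eef2 with Eef2k. Other members are given in part or by range. Pathway genes were named past a log2 change of 1 at E18 or when called with miR-1247. Gcn1, Ppp1r15a, Ppp1r15b, Chac1, Atf4 and Dohh were named after their values were seen. The members and lists were chosen with earlier results of these data known. Listed genes with no entry, microglia and endothelial markers among them, were not analysed here. Alternatives covered pseudocount, filter, scaling, trend, replicate block and left-out libraries. Tables and figures were made in Python 3.11.15 using pandas 2.3.3, Matplotlib 3.10.9 and NumPy 2.4.6. Locus starts were counted from 1.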

Additional observations from a re-analysis of the deposited data

How the results depend on the processing

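The count of members called in E18 against control was 47, and 44 to 47 in every alternative but the one on coordinates below, with 44 to 46 on leaving out a library. It was 36 higher and 10 lower with median ratio scaling, where the members' median was 0.48 and that of all features 0.02. Of the 47 calls 41 held in every alternative, and Eef1e1, Eefsec, Eif2a, Eif5a, Eif5b and Eif6 were lost in at least 1. In miR-1247 against control 5 members were called. This became 1 without the variance trend, 1 with only the 4 libraries compared, and 0 to 1 on leaving out a library (limma, 11 to 16 at an unadjusted p under 0.05). None of these 5 calls held in every alternative. The cause was not tested, though these fits have fewer libraries or another estimate of spread. E18 against miR-1247 gave 49 calls, with 44 to 50 in the alternatives but the one on coordinates. No called fold change of a named member changed sign. With members whose coordinates are their own, chosen after seeing the data, 42 of 50 were called in E18 against control, 4 in miR-1247 against control and 42 in E18 against miR-1247. With the replicate number as a block the counts were 47, 4 and 50. Deviations of same-numbered libraries correlated over genes at -0.00812, -0.00175 and 0.00353, so no shift shared by number was seen. This cannot show whether same-numbered libraries were prepared together. With 2 libraries a group, small changes may be missed.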
